A study of Mus musculus with 6 samples.

Results

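Synaptotagmins, synapsins, SNARE proteins and their close partners run the release of transmitter from synaptic vesicles and the fusion of other membranes in every cell. Members were chosen by gene symbol alone: synaptotagmins (Syt), synapsins (Syn), VAMPs, syntaxins (Stx), SNAP proteins, syntaxin-binding proteins (Stxbp), complexins (Cplx) and SV2 proteins. Of 22180 genes with a probe set that carries 1 gene symbol, 58 met this rule through 60 probe sets. Where a gene had several probe sets the brightest on average stood for it, and 57 of the 58 members had only 1.

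The arrays hold total RNA of macrodissected brain lesions, 3 from wild type and 3 from transgenic mice. In the transgenic mice, GFAP+ astrocytes that do not divide can be driven into apoptosis. Both groups received demyelinating LPC lesions at 5 to 6 weeks of age, then CID, the compound given for astrocyte ablation, 48 hours later. Brains were taken 7 days after the lesion, so the wild type mice carried the lesion and the compound without the transgene. No promoter or line is named for the transgene in the labels, and they do not say whether each lesion was from another animal. The p-values therefore measure only the spread between these samples, which may be technical.

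In a nerve terminal, a vesicle is held by a SNARE complex. The vesicle supplies a VAMP, the plasma membrane supplies syntaxin 1 and SNAP-25, and the helices zip together. Syt1 senses calcium and triggers fusion, complexins clamp and assist the complex, synapsins tether the reserve vesicles and SV2 proteins are carried in the vesicle membrane. Other syntaxins, VAMPs and SNAP proteins serve the Golgi, endosomes, lysosomes and the surface of glia and immune cells, so the family covers neurons and non-neuronal cells alike.

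Marker transcripts of cells and regions differed between the lesions. Means of marker lists are given as log2 intensities. Myelin markers (9 genes) were lower in every transgenic lesion, at 8.56 to 9.09 against 9.57 to 9.99 in wild type, with a difference of -0.92 and an exact two-sided permutation p of 0.1, the smallest that 3 against 3 allows. Striatal neuron markers (5 genes) reached 8.16 and 8.79 in wild type replicates 2 and 3, while wild type replicate 1 had 5.99 and the transgenic lesions 6.11 to 6.53 (exact permutation p 0.4). Their difference of -1.39 became -2.22 when wild type replicate 1 was left out and -0.82 when replicate 3 was. Microglia and macrophage markers (8 genes) were highest in wild type replicate 1, at 9.43, and transgenic replicate 1, at 8.82, and lay between 7.93 and 8.23 elsewhere (exact permutation p 0.7), and their difference of -0.29 turned to 0.16 without wild type replicate 1. Astrocyte markers (8 genes) differed by -0.26 (exact permutation p 0.3), which shrank to -0.07 without transgenic replicate 1, -0.12 with array weights and -0.03 with sex as a covariate. Gfap, the filament of the targeted cells, differed by -0.37 (SE 0.23). By Xist and 3 Y-linked genes, transgenic replicates 1 and 3 were male and the other 4 arrays female, so sex and genotype are largely confounded. No marker was at 0 on this scale, and in bulk tissue fewer cells of a type and less RNA per cell cannot be told apart.

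Neuronal transcripts were bright in all 6 lesions, as read from Snap25, the SNARE of the presynaptic membrane, and Syt1, the calcium sensor of fast release. Levels are log2 intensities in the order of replicates 1, 2 and 3. Snap25 stood at 11.70, 11.81 and 11.58 in wild type and at 11.52, 12.10 and 11.94 in transgenic lesions. Syt1 stood at 11.28, 11.28 and 11.13 in wild type and at 11.26, 11.54 and 11.57 in transgenic lesions. In both genes transgenic replicates 2 and 3 lay above all wild type arrays, and transgenic replicate 1 lay among or below them. The difference, always transgenic minus wild type in log2 units, was 0.16 (SE 0.19, 95% confidence interval -0.28 to 0.60) for Snap25 and 0.22 (SE 0.15, -0.13 to 0.58) for Syt1. Benjamini-Hochberg adjusted p-values in limma were 0.852 and 0.716. The Snap25 difference was 0.33 without transgenic replicate 1, 0.04 without transgenic replicate 2 and 0.10 without wild type replicate 3.

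Across the family, 37 members had a higher and 21 a lower mean in transgenic lesions, and the median difference was 0.05. Over all 22180 genes read in the same way, 10795 had a higher and 11385 a lower mean, with a median of -0.01. No member passed an adjusted p of 0.05 in limma, where 0% of 41345 probe sets did. At an unadjusted p under 0.05, 4 members (6.90%) were on the higher side, beside 3.93% of all genes (871), and 0 on the lower side, beside 3.06% (678). Those 4 were Vamp1, Syt4, Vamp7 and Syt13. Among all genes brighter than the median intensity, as 55 of the 58 members were, 5.27% reached that p on the higher side. All 3 transgenic arrays lay above all 3 wild type arrays in 8 members (13.8%), beside 8.38% of all genes, and below them in 2 (3.45%), beside 7%. With dim probe sets filtered out, 10.4% of genes lay above and 7.37% below in this way, beside 7 and 2 of 55 members. The shares on the higher side were above those of all genes and those on the lower side below them. These shares rest on few members, those on the higher side were nearer to the shares of bright genes, and no test was run over the list.

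**Figure D1:**
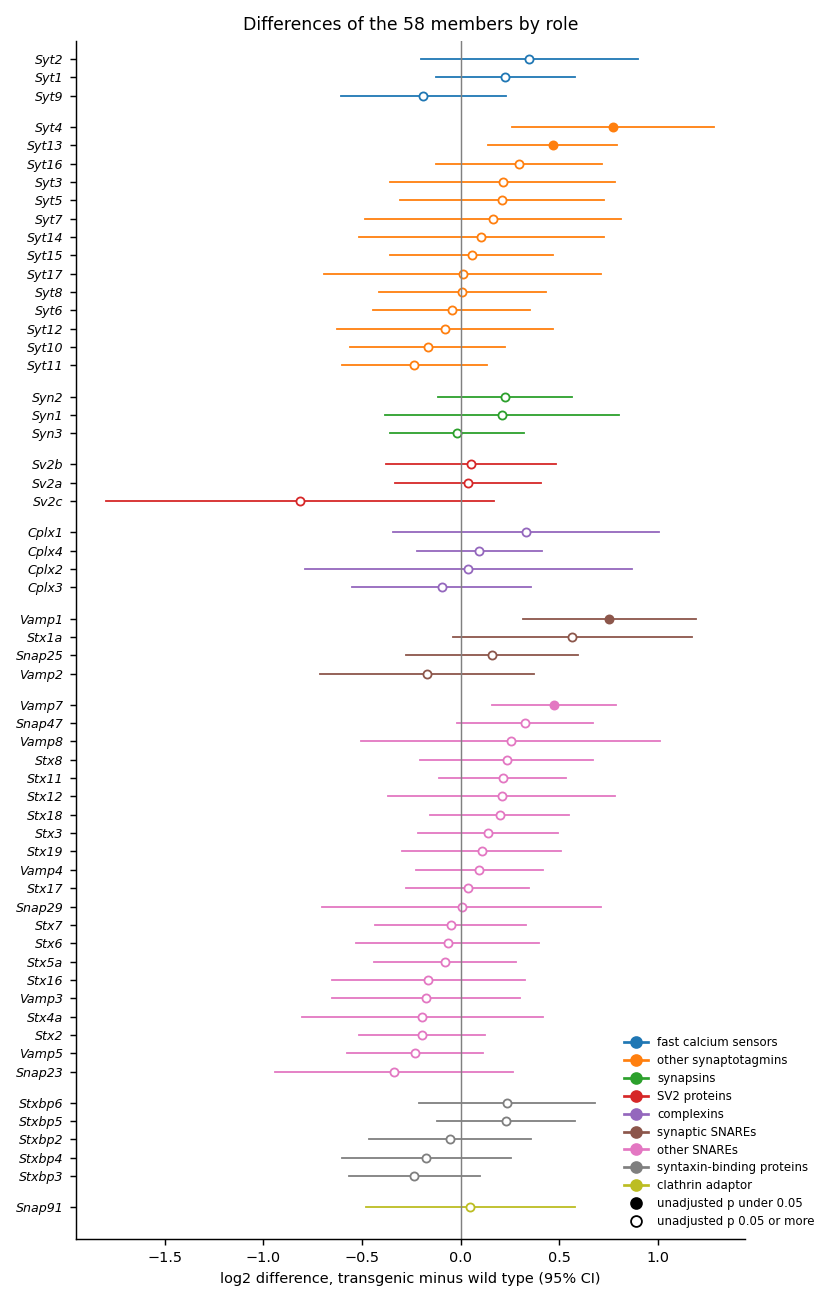
Log2 difference (transgenic minus wild type) of each of the 58 members with its 95% confidence interval from limma, grouped and coloured by role; filled points have an unadjusted p under 0.05 and open points do not. The 4 filled points, Syt4, Syt13, Vamp1 and Vamp7, lie to the right of 0, and Sv2c lies farthest to the left at -0.81 with a wide interval.

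Vamp1 and Sv2c stood near opposite ends of the family, and Syn1 is a standard marker of neurons. Their promoters are shown because these 3 genes follow different patterns over the arrays. The 250 bases before the gene start, 5′ to 3′ on the gene's strand, are those of RefSeq on GRCm38.p6: chr6:125215331-125215580 (plus strand) for Vamp1, chr13:96132578-96132827 (minus strand) for Sv2c and chrX:20920919-20921168 (minus strand) for Syn1. Capitals mark a GC box (GGGCGG), the cAMP response element (TGACGTCA) and an RE1 piece (CAGCACC). The RE1 piece is only a part of the element that the repressor REST binds. Each motif was searched on both strands.
Vamp1: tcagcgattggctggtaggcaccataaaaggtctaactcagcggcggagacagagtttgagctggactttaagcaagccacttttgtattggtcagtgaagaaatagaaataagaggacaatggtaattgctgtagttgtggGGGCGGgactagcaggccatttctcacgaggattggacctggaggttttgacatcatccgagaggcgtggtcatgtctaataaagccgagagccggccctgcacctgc
Sv2c: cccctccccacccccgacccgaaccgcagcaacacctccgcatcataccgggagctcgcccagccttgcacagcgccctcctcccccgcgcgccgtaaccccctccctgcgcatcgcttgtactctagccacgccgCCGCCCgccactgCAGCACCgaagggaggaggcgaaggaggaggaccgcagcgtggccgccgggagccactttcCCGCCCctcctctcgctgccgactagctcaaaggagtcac
Syn1: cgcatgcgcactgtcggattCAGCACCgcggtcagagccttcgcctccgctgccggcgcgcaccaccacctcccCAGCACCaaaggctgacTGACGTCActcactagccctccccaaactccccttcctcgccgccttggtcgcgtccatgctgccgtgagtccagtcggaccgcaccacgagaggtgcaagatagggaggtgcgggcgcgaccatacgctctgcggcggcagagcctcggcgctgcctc

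The Vamp1 window held 1 GC box and the Sv2c window 2 GC boxes and 1 RE1 piece. The Syn1 window held 1 cAMP response element and 2 RE1 pieces. No matches overlapped. The GC content was 50.4% for Vamp1, 70.8% for Sv2c and 68.0% for Syn1. The RefSeq table had windows for 46 of the 58 members, 61 windows in all. A GC box stood in 55.7% of them, beside 32.7% of all 32851 windows of that length. The cAMP response element stood in 3.28% and 1.55%, and the RE1 piece in 9.84% and 5.73%. Another 4 motifs were searched. The short cAMP site TGACG, which also lies within the longer element, stood in 18.0% of the members' windows and 17.8% of all. The TATA box TATAAA stood in 6.56% and 12.4%, the E-box CAGCTG in 26.2% and 13%, and the MEF2-like site CTATTT in 8.20% and 11.0%. These are matches of letters and not shown binding sites, and several windows belong to the same gene.

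A core of 12 members makes up the release machinery of most central synapses. In 11 of these the transgenic mean was the higher, though Cplx2, Sv2a and Sv2b turned below 0 under quantile normalization. The median difference was 0.22, and 1 had an unadjusted p under 0.05 in limma. Over all genes 48.7% had a higher mean and 6.98% such a p. Averaged over the 12, wild type lesions had 9.29, 9.43 and 9.43 and transgenic lesions 9.25, 9.87 and 9.74. Transgenic replicates 2 and 3 were high and transgenic replicate 1 was the lowest of all 6, so the groups overlapped. The 12 neuron markers outside the family were also highest in transgenic replicates 2 and 3, at 8.99, 9.24 and 9.25 in wild type and 9.09, 9.62 and 9.41 in transgenic lesions. Their difference was 0.22 (exact two-sided permutation p 0.3), with 10 of 12 higher. It was 0.36 without transgenic replicate 1, 0.09 without transgenic replicate 2 and 0.13 without wild type replicate 1. Cortical neuron markers (7 genes) stood at 7.93, 7.94 and 7.88 in wild type and 7.89, 8.60 and 8.31 in transgenic lesions. Their mean differed by 0.35 (exact two-sided permutation p 0.3), with 7 of 7 higher, and by 0.18 without transgenic replicate 2. The part of either marker list in the core's difference was not tested. The remaining 46 members had a median difference of 0.02, with 26 higher and 20 lower.

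**Figure D2:**
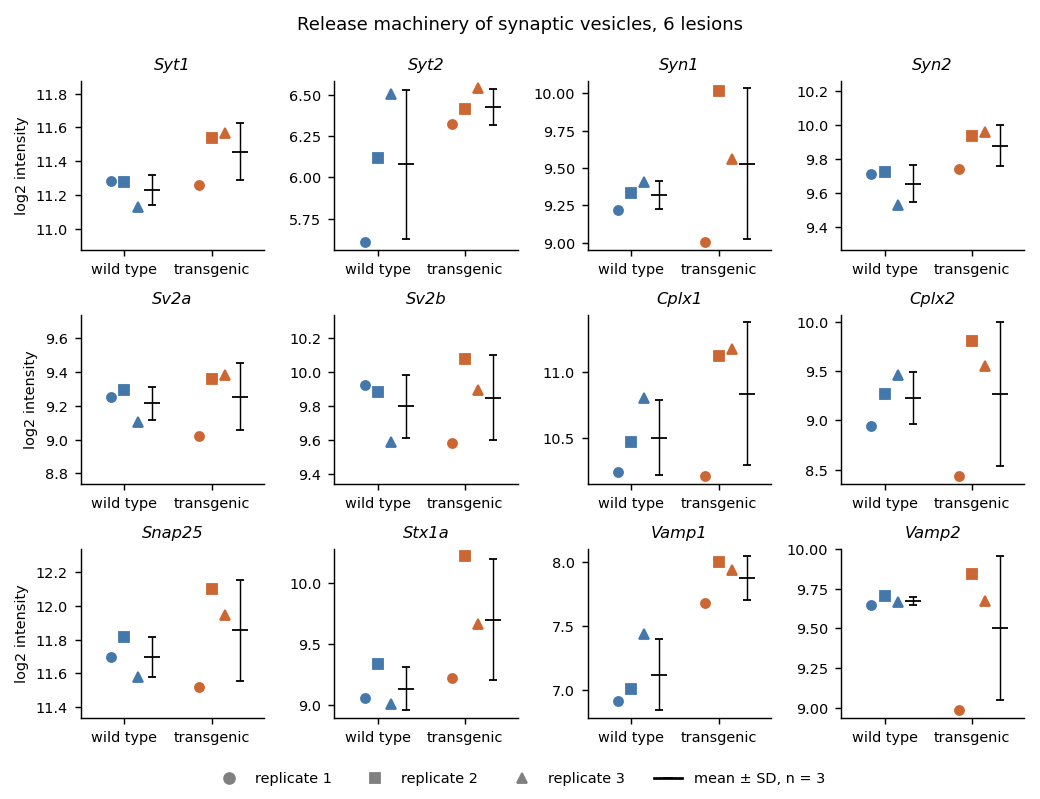
Log2 intensity of the 12 core release genes on each array, with wild type in blue, transgenic in orange, a symbol for each replicate and the mean ± SD (n = 3) beside the points; the vertical axis differs between panels. Vamp1 and Syn2 are the panels where the groups do not overlap, and transgenic replicate 1 is the lowest of the 6 in Syn1, Sv2a, Sv2b, Cplx1, Cplx2, Snap25 and Vamp2.

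Among the synaptic SNAREs, Vamp1 separated the groups. VAMP1 is the vesicle SNARE used in place of VAMP2 by many fast-firing neurons, parvalbumin interneurons among them. Vamp1 stood at 6.92, 7.01 and 7.44 in wild type and at 7.68, 8.0 and 7.94 in transgenic lesions. Every transgenic lesion was above every wild type lesion. The difference was 0.75 (SE 0.19), a 1.69-fold difference, with an unadjusted p of 0.00467 and an adjusted p of 0.407 in limma. The transgenic female alone, which is what sex as a covariate leaves, stood 0.88 above wild type.

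Vamp2, the main vesicle SNARE of forebrain synapses, went the other way in its mean. It stood at 9.65, 9.70 and 9.67 in wild type and 8.99, 9.84 and 9.67 in transgenic lesions. The wild type lesions were nearly alike, and transgenic replicate 1 alone stood far below. The difference was -0.17 (SE 0.23, adjusted p 0.871) and turned to 0.08 without transgenic replicate 1. The deposited values thus placed Vamp1 and Vamp2 on opposite sides of 0, and the difference between the genes was not tested.

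Stx1a, the neuronal syntaxin of the plasma membrane, stood at 9.05, 9.33 and 9.01 in wild type and 9.22, 10.21 and 9.66 in transgenic lesions. Transgenic replicate 2 was the highest array and transgenic replicate 1 lay within the wild type range. The difference was 0.56 (SE 0.26), 1.48-fold, at an adjusted p of 0.590. It was 1.08 in the transgenic female alone and 0.31 without that array, so its size rests on transgenic replicate 2.

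Syt2, the fast calcium sensor found at parvalbumin terminals and in the hindbrain, stood at 5.61, 6.12 and 6.51 in wild type and 6.32, 6.41 and 6.54 in transgenic lesions. Its wild type lesions were spread over almost a log2 unit and the transgenic lesions lay at the top of that spread. The difference was 0.35 (SE 0.23, adjusted p 0.720). Leaving out wild type replicate 1 gave 0.11 and leaving out wild type replicate 3 gave 0.56, so its size rests on the wild type lesions. Pvalb, the calcium-binding protein of those interneurons, stood at 6.98, 7.30 and 7.89 in wild type and 8.89, 8.81 and 8.70 in transgenic lesions. In wild type, Pvalb, Vamp1 and Syt2 had their lowest value in replicate 1 and their highest in replicate 3. Cplx1, Cplx2, Syn1 and Sv2c, among others, had the same wild type order. In transgenic lesions the order was not shared, with Pvalb highest in replicate 1, Vamp1 in replicate 2 and Syt2 in replicate 3. Pvalb is 1 of 7 interneuron markers, of which 4 had a higher and 3 a lower mean in transgenic lesions. Pvalb (1.41), Vip (1.22) and Npy (0.73) were higher with no overlap between groups, and Gad1 differed by 0.02. Gad2 (-0.31), Slc32a1 (-0.34) and Sst (-0.15) were lower. The mean of the 7 differed by 0.37 (exact two-sided permutation p 0.1) and by 0.20 without wild type replicate 1. Whether Pvalb, Vamp1 and Syt2 share a source was not tested. Syt9, the remaining sensor of this group, differed by -0.19 (SE 0.18).

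The synapsins, phosphoproteins that hold vesicles in reserve, were higher in transgenic means for Syn1 and Syn2. Syn2 stood at 9.71, 9.72 and 9.53 in wild type and 9.74, 9.94 and 9.96 in transgenic lesions. Its groups did not overlap, but the gap between transgenic replicate 1 and wild type replicate 2 was small. The difference was 0.23 (SE 0.14, adjusted p 0.705). Syn1 stood at 9.22, 9.33 and 9.40 in wild type and at 9.0, 10.01 and 9.56 in transgenic lesions. The transgenic lesions spanned the wild type range on both sides. Its difference of 0.21 (SE 0.25) turned to -0.04 without transgenic replicate 2, and Syn1 lies on the X chromosome. Syn3 differed by -0.02 (SE 0.14).

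The complexins bind the assembled SNARE helix. Cplx1 stood at 10.24, 10.47 and 10.80 in wild type and 10.22, 11.12 and 11.17 in transgenic lesions, a difference of 0.33 (SE 0.29). Cplx2 stood at 8.95, 9.27 and 9.46 in wild type and 8.43, 9.80 and 9.55 in transgenic lesions, a difference of 0.04 (SE 0.35). In both, transgenic replicates 2 and 3 were above and transgenic replicate 1 below all wild type arrays, and the errors were wide. Of the retinal complexins, Cplx3, also a gene of deep cortical neurons, differed by -0.10 (SE 0.19). Cplx4 stood between 3.80 and 4.05 on all arrays, below the array medians of 5.34 to 5.59, and differed by 0.09 (SE 0.14).

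The SV2 proteins, transporter-like glycoproteins of the vesicle, differed in their pattern over the arrays. Sv2c, the form enriched in the striatum and other basal ganglia, stood at 6.26, 7.58 and 8.0 in wild type and at 6.33, 6.34 and 6.73 in transgenic lesions. Wild type replicates 2 and 3 were high and the other 4 arrays low, so the groups overlapped. The difference was -0.81 (SE 0.42), with an unadjusted p of 0.0919 and an adjusted p of 0.630. Drd2, a dopamine receptor of striatal neurons, was high on the same 2 arrays, at 8.11 and 8.68, and lay between 5.67 and 6.37 on the others. Without wild type replicate 1 the difference of Sv2c was -1.32, and without wild type replicate 3 it was -0.45. The part of striatal tissue in this difference was not tested.

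Sv2a, the form of nearly all synapses and the target of levetiracetam, stood at 9.25, 9.29 and 9.11 in wild type and 9.02, 9.36 and 9.38 in transgenic lesions. Sv2b stood at 9.92, 9.88 and 9.59 in wild type and 9.58, 10.08 and 9.89 in transgenic lesions. Both sets of lesions overlapped, with differences of 0.04 (SE 0.16, 95% confidence interval -0.33 to 0.41) and 0.05 (SE 0.18, -0.38 to 0.48).

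**Figure D3:**
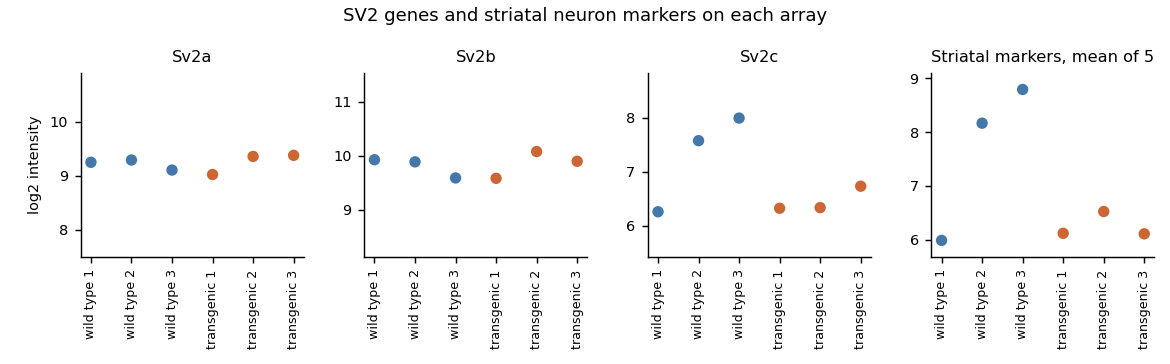
Log2 intensity on each array of the genes Sv2a, Sv2b and Sv2c and of the mean of 5 striatal neuron markers, with wild type in blue and transgenic in orange; each panel spans the same number of log2 units. Sv2c and the striatal markers peak on wild type replicates 2 and 3, whereas Sv2a and Sv2b vary little.

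The 14 synaptotagmins outside the fast sensors had a median difference of 0.08, with 10 higher and 4 lower. Of them 2, Syt4 and Syt13, had an unadjusted p under 0.05 in limma, beside 6.98% of all genes. Syt4 is an activity-induced synaptotagmin of dense-core vesicles that does not work as a fast sensor. It stood at 8.89, 9.63 and 9.56 in wild type and 10.24, 10.13 and 10.04 in transgenic lesions. All transgenic lesions were above all wild type lesions, and wild type replicate 1 was the lowest array. The difference was 0.77 (SE 0.22), 1.71-fold, with an unadjusted p of 0.00876 and an adjusted p of 0.451 in limma. The other 2 probe sets of Syt4 gave smaller differences, 0.29 (SE 0.19) and 0.11 (SE 0.23), and the mean of all 3 differed by 0.39, so the size depends on the probe set.

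Syt13, a synaptotagmin that does not bind calcium, stood at 8.05, 8.18 and 7.91 in wild type and 8.50, 8.49 and 8.55 in transgenic lesions. The transgenic lesions were nearly equal and lay above all wild type lesions. The difference was 0.47 (SE 0.14), 1.38-fold, with an unadjusted p of 0.0115 and an adjusted p of 0.473. The examples with the next smallest p-values were Syt16 (0.30, SE 0.18), Syt11, a non-calcium form also present in glia (-0.23, SE 0.16), and Syt10 (-0.17, SE 0.17). The remaining 9, Syt3, Syt5, Syt6, Syt7, Syt8, Syt12, Syt14, Syt15 and Syt17, differed by -0.08 to 0.21, and their groups overlapped.

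**Figure D4:**
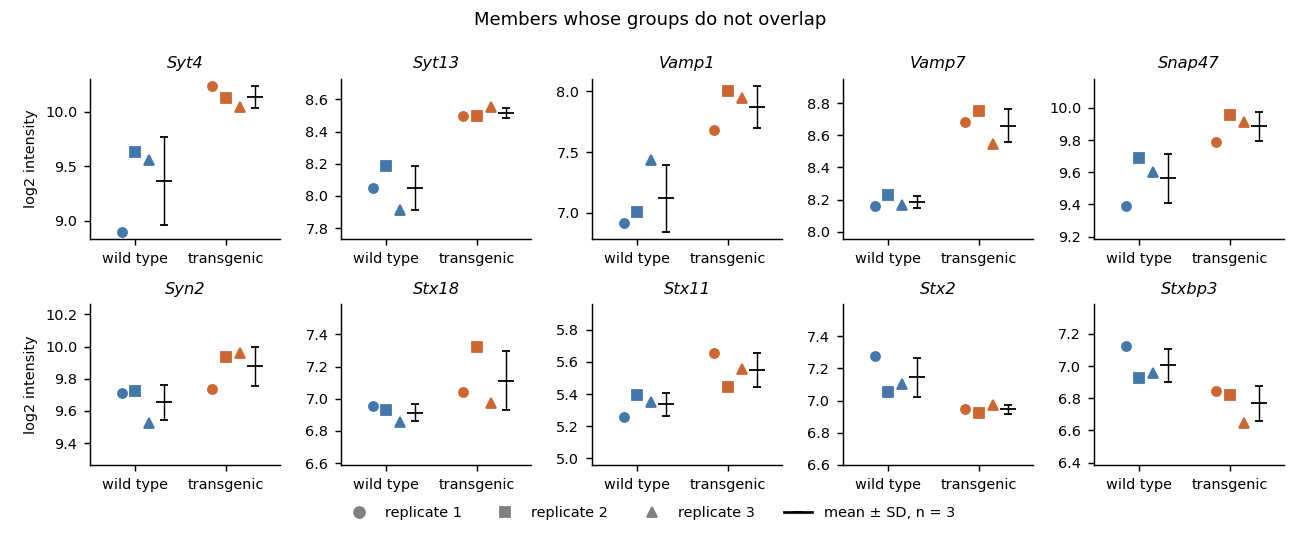
Log2 intensity on each array of the 10 members whose groups did not overlap, with wild type in blue, transgenic in orange, a symbol for each replicate and the mean ± SD (n = 3) beside the points; the vertical axis differs between panels. Syt4, Syt13, Vamp1, Vamp7, Snap47, Syn2, Stx18 and Stx11 are higher and Stx2 and Stxbp3 lower in all 3 transgenic lesions. The gaps are clear in Syt4, Syt13 and Vamp7 and narrow in Syn2, Stx18 and Stx11.

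SNAREs that work outside the synaptic vesicle cycle, 21 members, had a median difference of 0.04, with 12 higher and 9 lower. The median had no settled sign, at -0.06 without transgenic replicate 2, -0.01 with array weights and 0.11 without wild type replicate 1. Vamp7, a longin SNARE of late endosomes and lysosomes that also serves neurite growth, had the smallest p among them. It stood at 8.16, 8.23 and 8.17 in wild type and 8.68, 8.75 and 8.55 in transgenic lesions. The wild type lesions were almost equal and every transgenic lesion lay above them. The difference was 0.47 (SE 0.13), 1.39-fold, with an unadjusted p of 0.00890 and an adjusted p of 0.453. Vamp7 lies on the X chromosome, and the female transgenic lesion was the highest of the 6 arrays.

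Snap47, a SNAP protein of intracellular membranes in neurons, stood at 9.39, 9.69 and 9.60 in wild type and 9.79, 9.96 and 9.91 in transgenic lesions, without overlap. The difference was 0.32 (SE 0.15, adjusted p 0.588). Stx18, a syntaxin of the endoplasmic reticulum, stood at 6.96, 6.93 and 6.85 in wild type and 7.04, 7.32 and 6.97 in transgenic lesions, a difference of 0.20 (SE 0.15). The highest wild type and the lowest transgenic value nearly met. Stx11, a syntaxin of immune cells, stood at 5.26, 5.40 and 5.35 in wild type and 5.65, 5.44 and 5.55 in transgenic lesions, a difference of 0.21 (SE 0.14), close to the array medians.

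Stx2, a plasma membrane syntaxin of epithelial and glial cells, lay lower in every transgenic lesion. It stood at 7.28, 7.05 and 7.10 in wild type and 6.95, 6.92 and 6.97 in transgenic lesions. The gap between the groups was narrow beside the wild type spread, and the difference was -0.20 (SE 0.14, adjusted p 0.726).

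Of the SNAREs that serve surface fusion in non-neuronal cells, Snap23, the widely expressed relative of Snap25, differed by -0.34 (SE 0.26), and Vamp5, a VAMP of muscle and other peripheral tissues, by -0.23 (SE 0.15). Stx8, a late endosomal syntaxin, differed by 0.23 (SE 0.19). Vamp8, the VAMP of lysosomal and secretory granule fusion in immune and gland cells, was singled out after its values were seen. It stood at 7.47, 6.97 and 7.03 in wild type and 8.14, 6.93 and 7.16 in transgenic lesions. Its difference was 0.25 (SE 0.32). Its 2 highest arrays, replicate 1 of each group, were those with the highest mean of microglia and macrophage markers, though in the opposite order. These markers did not move together on transgenic replicate 1. There Tyrobp (11.33), Aif1 (8.29) and Trem2 (7.79) were at their highest of all arrays and Csf1r (8.02) at its lowest. The part of those cells was not tested. The other SNAREs of this group, Stx3, Stx4a, Stx5a, Stx6, Stx7, Stx12, Stx16, Stx17, Stx19, Vamp3, Vamp4 and Snap29, differed by -0.19 to 0.21 with overlapping groups.

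The 5 syntaxin-binding proteins measured had a median difference of -0.05. Stxbp3, the Munc18 form of most non-neuronal cells, stood at 7.12, 6.93 and 6.96 in wild type and 6.84, 6.82 and 6.64 in transgenic lesions. Each transgenic lesion was below each wild type lesion, with a difference of -0.23 (SE 0.14, adjusted p 0.686). Stxbp5, known as tomosyn and an inhibitor of SNARE assembly, differed by 0.23 (SE 0.15), Stxbp6, known as amisyn, by 0.23 (SE 0.19) and Stxbp4 by -0.17 (SE 0.18). Stxbp2, the Munc18 form of immune and epithelial cells, differed by -0.05. Snap91 met the symbol rule but is AP180, a clathrin adaptor of vesicle retrieval and no SNARE, and differed by 0.05 (SE 0.23).

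A member had a median SD of 0.15 among wild type and 0.21 among transgenic lesions, beside 0.13 and 0.23 over all genes. Transgenic replicate 1 was the lowest array for 26 members (44.8%), beside 26.7% of all genes. Transgenic replicate 2 was the highest for 26 members (44.8%), beside 29.6% of all genes. Without transgenic replicate 1, 10 members had an unadjusted p under 0.05, all higher, beside 5.86% of all genes on that side, and the groups did not overlap for 26, of which 23 were higher. Over all genes 18.8% were then above and 15.2% below. The median difference of the 12 core genes, 0.22 with all arrays, was 0.11 without transgenic replicate 2, 0.36 without transgenic replicate 1 and 0.37 with sex as a covariate.

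**Figure D5:**
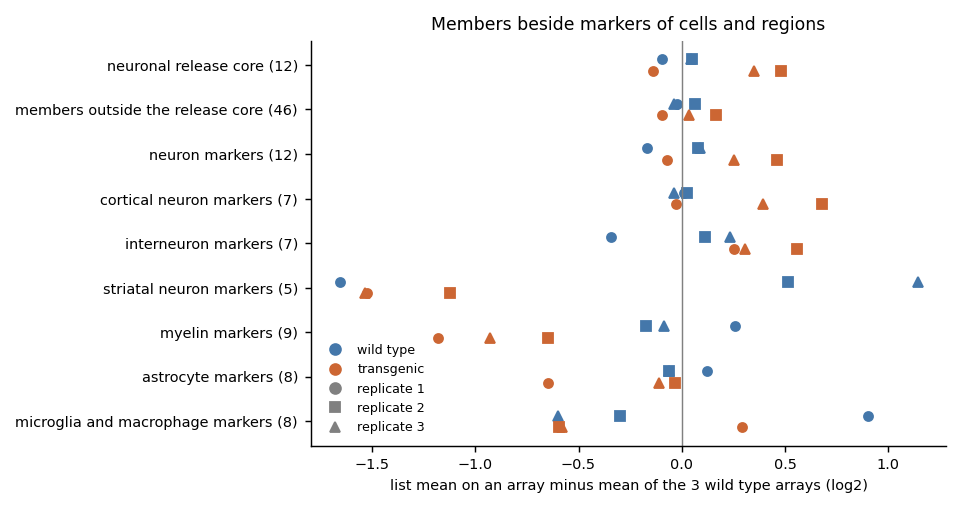
Mean log2 level of each gene list on each array minus the mean of the 3 wild type arrays, with the number of genes in brackets, wild type in blue, transgenic in orange and a symbol for each replicate. In the core release genes, neuron markers and cortical markers, transgenic replicates 2 and 3 stand to the right and transgenic replicate 1 near or left of 0; the myelin markers lie left of 0 in all 3 transgenic lesions.

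Genes of the same pathway outside the symbol rule were read in the same way. Over all genes, 48.7% had a higher mean and 6.98% an unadjusted p under 0.05 in limma. Without overlap, 8.38% of all genes lay above and 7% below. Of 34 release partners, which prime, dock and organise vesicles, 26 had a higher mean, with a median difference of 0.05, and 1 reached an unadjusted p under 0.05. That gene was Cadps2, a priming factor of dense-core vesicles, at 7.20, 7.20 and 7.15 in wild type and 7.29, 7.77 and 7.68 in transgenic lesions (difference 0.40, SE 0.17, adjusted p 0.561 in limma). Its relative Cadps differed by 0.42 (SE 0.18), the active zone gene Rims4 by 0.41 (SE 0.18) and the synaptophysin relative Synpr by -0.56 (SE 0.29). For Synpr all transgenic lesions were below all wild type lesions.

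Of 6 vesicular transporters, 2 had a higher mean and 4 a lower. Slc17a6, which loads glutamate in subcortical and some cortical neurons, stood at 6.16, 6.41 and 5.69 in wild type and 6.56, 6.68 and 7.12 in transgenic lesions (0.71, SE 0.24, adjusted p 0.492 in limma). All transgenic lesions were above all wild type lesions. Slc32a1, which loads GABA, differed by -0.34 (SE 0.30) and was highest on wild type replicates 2 and 3, the arrays with high striatal markers. Slc18a2, the monoamine transporter, differed by -0.27 (SE 0.16), with all transgenic lesions below all wild type lesions. Slc17a8, another glutamate transporter, differed by -0.18 (SE 0.17).

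Of 8 genes of vesicle retrieval, 4 were higher and 4 lower. Sh3gl2, the neuronal endophilin, differed by 0.33 (SE 0.14) with no overlap and an unadjusted p of 0.0493. Bin1, an amphiphysin of neurons and oligodendrocytes, differed by -0.44 (SE 0.17) with no overlap and an unadjusted p of 0.0381, on arrays where the myelin markers were lower too. The part of oligodendrocytes in this was not tested. Dnm3 differed by -0.32 (SE 0.18) and Itsn1 by -0.16 (SE 0.24). Of 15 SNAREs and SM proteins outside the symbol rule, 10 were higher and 5 lower. In limma 0 of them had an unadjusted p under 0.05, beside 6.98% of all genes. Bet1l (0.39, SE 0.18), Sec22b (0.29, SE 0.15), Use1 (0.24, SE 0.15) and Gosr1 (-0.34, SE 0.23), all of traffic within and between the endoplasmic reticulum and the Golgi, had the smallest p-values.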

How the data were processed

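The authors deposited 1 intensity per probe set and array, and the submitters' processing notes name RMA and Affymetrix Expression Console. RMA subtracts background, brings arrays to a common distribution and combines the probes of a set, which compresses small values. Such values are usually on a log2 scale, but the deposited ones ran from 3.73 to 15793 and were taken as linear, so log2 was applied with no pseudocount. No tool version, detection call or scan date was at hand. Of 41345 probe sets, 23521 carried 1 gene symbol in the platform annotation, 1814 several and 16010 none.

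Groups were compared with limma (version 3.58.1, R 4.3.3; lmFit and eBayes, two-sided, Benjamini-Hochberg over all 41345 probe sets), with all 6 arrays and no covariate. Standard errors and intervals are those of the fit. On data simulated for this comparison over 41345 probe sets, 27 of 100 changed by 1 log2 unit were recovered, 95 of 100 changed by 2, and 11 unchanged were called. List means of markers were compared by exact permutation over 20 assignments. Members with an unadjusted p under 0.05, members without overlap between groups and the core genes are given in full; up to 3 others per role, and up to 4 genes per pathway list, are those with the smallest p. Of the genes listed for the synaptic SNAREs, the other SNAREs and the syntaxin-binding proteins, 1 each was not analysed here. The members and lists were chosen with earlier results of these data known.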

Additional observations from a re-analysis of the deposited data

How the results depend on the processing

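Alternatives were quantile normalization, median centring, a filter on dim probe sets, the mean of all probe sets of a gene, trend with robust moderation, array weights, the replicate block, sex as a covariate, a pseudocount of 16 and leaving out each array in turn. Over all probe sets, same-numbered arrays of the groups showed little shared deviation from their group means (correlations of 0.01, -0.10 and -0.07). With so few arrays this cannot exclude that the numbers mark pairs or batches. With the replicate block 6 members had an unadjusted p under 0.05 in limma in place of 4. Over all genes the share was 4.82% in place of 6.98%, and 0 probe sets passed. Array weights, which rested mostly on transgenic replicate 3 in its group, gave 2611 probe sets past an adjusted p of 0.05, among them the members Vamp1, Vamp7 and Syt13, and 17 members at an unadjusted p under 0.05, where 23% of all genes reached it. With sex as a covariate, which leaves transgenic replicate 2 alone against wild type, 1481 probe sets passed, none a member, and 7 members had an unadjusted p under 0.05, where 16.6% of all genes did; the median difference was 0.23 over all members and 0.14 over the other SNAREs, and the marker means differed by 0.46 (neuron), 0.68 (cortical) and -0.65 (myelin). Leaving out 1 array gave 0 to 335 probe sets (335 without transgenic replicate 2, none a member), 4 to 10 members at an unadjusted p under 0.05 (3.3% to 10.5% of all genes) and 12 to 26 members without overlap (11% to 18.8% of all genes above and 10.4% to 15.2% below). The sign turned under quantile normalization for Cplx2 (-0.0041), Sv2a (-0.022), Sv2b (-0.010) and Snap91 (-0.011), for Syn3 under median centring (0.035), array weights (0.023) and sex (0.12), under array weights for Stx8 (-0.081) and Itsn1 (0.0062), and with sex for Vamp2 (0.17), Cplx3 (0.23), Snap23 (0.16), Vamp8 (-0.225) and Itsn1 (0.16). Leaving out 1 array turned it too, with ranges of -0.23 to 0.45 for Cplx2, -0.025 to 0.15 for Sv2a, -0.061 to 0.19 for Sv2b, -0.035 to 0.47 for Syn1, -0.34 to 0.084 for Vamp2, -0.087 to 0.070 for Syn3, -0.26 to 0.082 for Cplx3, -0.105 to 0.28 for Snap91, -0.11 to 0.49 for Vamp8 and -0.32 to 0.098 for Itsn1. Over all members the median was -0.05 without transgenic replicate 2. The cause was not tested. The 4 members with an unadjusted p under 0.05 kept their sign in every setting run. In each of them every transgenic array lay above every wild type array. Leaving out or weighting arrays, the replicate block and sex as a covariate therefore could not have turned the sign. There were no detection calls, so whether dim members such as Cplx4 were above background is unknown.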
